A study of Mus musculus with 4 samples.

Results

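The enzymes that turn arachidonic acid into prostaglandins, thromboxane and leukotrienes were followed in single cells of the mouse ankle synovium during serum-transfer arthritis. The 10 genes were fixed by name, out of 32285 genes counted, at a time when earlier results of these data were known. They are Pla2g4a, Ptgs1, Ptgs2, Ptges, Tbxas1, Hpgds, Alox5, Alox5ap, Lta4h and Ltc4s. All 10 were detected in every library and all passed the minimum of 30 UMIs over a pair of libraries.

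Arachidonic acid is released from membranes by the cytosolic phospholipase A2 that Pla2g4a encodes, and then enters one of 2 arms. In the prostanoid arm, the cyclooxygenases Ptgs1 and Ptgs2 make prostaglandin H2, which Ptges, Tbxas1 and Hpgds turn into prostaglandin E2, thromboxane A2 and prostaglandin D2. In the leukotriene arm, 5-lipoxygenase (Alox5) works with its membrane partner Alox5ap to make leukotriene A4, which Lta4h turns into the neutrophil attractant leukotriene B4 and Ltc4s into leukotriene C4, the first of the cysteinyl leukotrienes. Ptgs1 is known as the constitutive cyclooxygenase and Ptgs2 as the inducible one, which inflammatory signals switch on in monocytes, macrophages and fibroblasts.

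The mice were bone marrow chimeras in which CD45.1 B6 marrow was given to CD45.2 B6 recipients whose ankles had been shielded from irradiation, so that CD45.1 marks donor cells and CD45.2 cells of the recipient, including any synovial leukocytes that survived in the shielded joint. Arthritis was induced with serum of K/BxN transgenic mice. Cells positive for CD45 and CD11b and negative for Ly6G, SiglecF, CD64, MHCII, Ly6c and CD177 were sorted, and their RNA and antibody tags were counted by CITE-seq. Each stage had 1 library. Baseline mice were untreated and taken at day 0, the peak library comes from day 7, the plateau library from day 14 and the resolution library from day 56. The sources used here give neither how many mice went into a library nor their age. An unexplained tag, "Clo-lip", appears in the titles of the arthritis libraries and not in that of baseline, so whatever it stands for and arthritis cannot be told apart.

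A barcode was kept when it held 300 genes or more and when mitochondrial transcripts made up 10% of its UMIs or less. This left 1071 at baseline, 5941 at peak, 2828 at plateau and 4611 at resolution, or 14451 of 15501. Kept gene UMIs ranged from 11957871 to 58705149 per library and the median per barcode from 4912 to 8250. Pairs of libraries shared between 1 and 10 barcode sequences. Ptprc, which encodes CD45, and Itgam, which encodes CD11b, were detected in all libraries, and Ly6g was at 39, 4, 1 and 0 UMIs from baseline to resolution. Transcripts of other gated-out markers were present: H2-Ab1, an MHC class II gene, stood at 366 to 1287 CPM, and Fcgr1, which encodes CD64, at 16.5 to 294 CPM. Ly6c2 stood at 110 to 466 CPM and Cd177 at 8.31 to 122 CPM. All 8 neutrophil markers were detected in each library, with a summed level of 39717 CPM at baseline against 307 to 1630 CPM in the other libraries. Clusters with fibroblast, osteoclast, neutrophil, basophil or mast cell markers were also present and are named beside the results they touch.

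Donor and recipient were read from 2 tagged antibodies, whose 15-base tags are shown because every donor and recipient value below rests on telling them apart. The tags differ at 11 of 15 positions. All bases of a tag are in capitals.
CD45.1 antibody tag: CCTATGGACTTGGAC
CD45.2 antibody tag: CACCGTCATTCAACC
A barcode counted as CD45.1 where log2((CD45.1 + 1)/(CD45.2 + 1)) of its antibody UMIs was at least 1 and as CD45.2 where it was at most -1. By this rule 808, 5576, 2402 and 3249 barcodes were CD45.1 from baseline to resolution, 190, 219, 239 and 730 were CD45.2, and 73, 146, 187 and 632 lay between and belong to neither.

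The 250 bases upstream of the RefSeq start site (GRCm38.p6) are shown for the 3 enzymes whose levels had the widest spans between libraries. The highest library was 25.4-fold over the lowest for Alox5, 8.26-fold for Ltc4s and 7.99-fold for Ptgs2. Capitals mark matches to 6 short motifs searched on both strands, which do not overlap each other in these windows. The C/EBP palindrome was searched as TTGCGCAA and the PU.1 core as GAGGAAGT. The Sp1 core was searched as GGGCGG. For the E-box the letters were CACGTG. The core of the cyclic AMP element was taken as TGACGT. The TATA box was spelled TATAAA. Ptgs2 lies on chromosome 1 at 150100031 to 150108234, Alox5 on chromosome 6 at 116410071 to 116461178 and Ltc4s on chromosome 11 at 50236461 to 50238532. The Ptgs2 window is chr1:150099781-150100030 on the plus strand, the Alox5 window chr6:116461179-116461428 on the minus strand and the Ltc4s window chr11:50238533-50238782 on the minus strand.
Ptgs2: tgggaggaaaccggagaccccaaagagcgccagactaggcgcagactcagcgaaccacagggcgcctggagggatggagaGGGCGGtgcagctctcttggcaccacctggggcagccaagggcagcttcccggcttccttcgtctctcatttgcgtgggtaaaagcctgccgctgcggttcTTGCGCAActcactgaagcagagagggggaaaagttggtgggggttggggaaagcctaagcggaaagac
Alox5: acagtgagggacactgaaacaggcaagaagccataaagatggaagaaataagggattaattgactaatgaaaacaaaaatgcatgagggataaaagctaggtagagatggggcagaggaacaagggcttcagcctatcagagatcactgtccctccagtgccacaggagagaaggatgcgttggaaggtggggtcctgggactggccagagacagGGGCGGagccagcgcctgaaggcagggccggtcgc
Ltc4s: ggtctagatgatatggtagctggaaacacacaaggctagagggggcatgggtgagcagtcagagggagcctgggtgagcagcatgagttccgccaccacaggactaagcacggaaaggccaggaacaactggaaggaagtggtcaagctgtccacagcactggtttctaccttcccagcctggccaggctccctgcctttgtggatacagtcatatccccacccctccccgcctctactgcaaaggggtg
The C/EBP palindrome lay 69 to 62 bases before the Ptgs2 start and was present in 54 of 32841 such windows, or 0.164%. Ptgs2 also held an Sp1 core 170 to 165 bases before its start, and Alox5 held one 35 to 30 bases before its start, a motif that 32.7% of windows have. None of the 6 motifs matched the Ltc4s window in these exact letters. Matches describe the sequence alone.

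Across the 4 libraries Ptgs2 ran opposite to Alox5 and Ltc4s, while the other members of the 2 arms did not divide by arm. Ptgs2, the inducible cyclooxygenase, was at 34.5, 159, 106 and 19.9 CPM (UMIs per 1000000 gene UMIs of the library) at baseline, peak, plateau and resolution. Alox5, the 5-lipoxygenase, was at 57.0, 6.17, 13.4 and 157 CPM. Ptgs2 was highest at peak, where Alox5 was lowest, and Alox5 was highest at resolution, where Ptgs2 was lowest. Ltc4s, the leukotriene C4 synthase, was at 123, 18.9, 52.4 and 156 CPM, and Hpgds, a prostaglandin D2 synthase of blood-derived cells, at 12.1, 3.68, 7.81 and 15.8 CPM. Both were lowest at peak and highest at resolution, as Alox5 was, so Hpgds of the prostanoid arm had the order of Alox5 and Ltc4s.

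Among the remaining prostanoid enzymes, Ptgs1 was at 11.0, 2.15, 4.39 and 7.75 CPM and Tbxas1, the thromboxane synthase, at 27.3, 15.2, 25.3 and 34.6 CPM from baseline to resolution. Both were lowest at peak. Ptges, the inducible prostaglandin E synthase, stayed between 1.99 and 4.51 CPM and its 95% counting intervals at peak (3.99 to 5.09) and plateau (2.51 to 3.81) both overlapped the one at baseline (2.74 to 5.04). In the leukotriene arm, Alox5ap was at 1501, 1528, 962 and 1481 CPM and Lta4h at 79.5, 37.8, 27.3 and 45.7 CPM. Pla2g4a, which feeds both arms, had the narrowest span of the 10 genes, from 23.3 CPM at baseline to 35.2 CPM at resolution, or 1.51-fold, against 25.4-fold for Alox5.

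**Figure D1:**
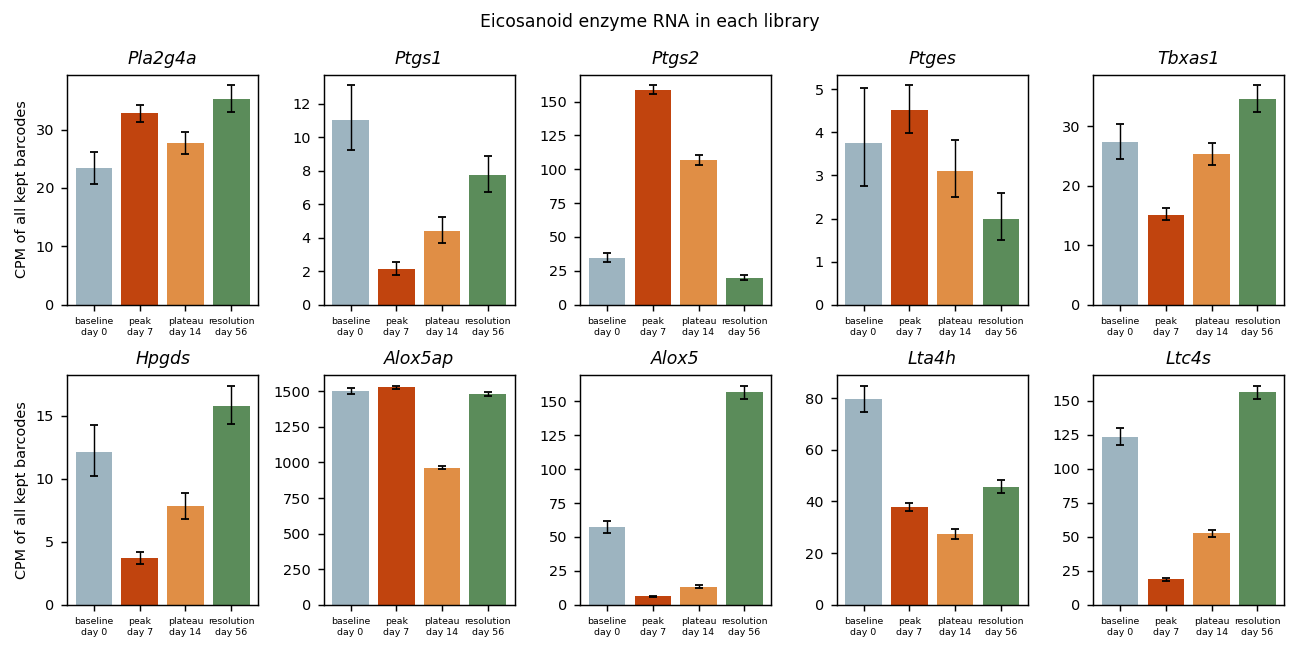
Level of each gene in CPM (y axis) in each of the 4 libraries (x axis, 1 library per stage), with exact 95% Poisson intervals that cover counting error alone. Ptgs2 is highest at peak with 159 CPM, where Alox5, Ltc4s, Hpgds, Ptgs1 and Tbxas1 are lowest.

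Since each stage was a single library, stages were compared by size without a test, and the intervals below cover counting error alone. A gene was called at 2-fold or more with at least 30 UMIs in the pair. Fewer cells of a type and less RNA per cell cannot be told apart in these summed values. At peak against baseline 1 of the 10 enzymes was called higher and 5 lower, where 8.52% of 13084 genes were higher and 12.6% lower. Ptgs2 was 4.60-fold higher (4.17 to 5.09). Alox5 was 9.24-fold lower (8.13 to 10.5), Ltc4s 6.53-fold lower (6.04 to 7.06) and Ptgs1 5.14-fold lower (4.00 to 6.62). Hpgds was 3.30-fold lower (2.65 to 4.09) and Lta4h 2.10-fold lower (1.95 to 2.27). With edgeR's TMM totals, which shift each log2 ratio of this pair by 0.20, Lta4h was under 2-fold. The median log2 ratio was -0.96 over the 10 enzymes and -0.13 over all genes.

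At plateau against peak 4 enzymes were called higher and 0 lower, where 15.1% of 13501 genes were higher and 5.07% lower. Ltc4s was 2.77-fold higher (2.57 to 3.00), Alox5 2.16-fold, Hpgds 2.12-fold and Ptgs1 2.05-fold. The last 3 lay just past the threshold, and with TMM totals, which shift this pair by -0.25, Ltc4s alone was past it. At resolution against plateau 3 were called higher and 1 lower, where 13.4% of 13291 genes were higher and 10.5% lower. Alox5 was 11.7-fold higher (10.6 to 13.03), Ltc4s 2.98-fold higher (2.81 to 3.16) and Hpgds 2.02-fold higher (1.72 to 2.38), while Ptgs2 was 5.36-fold lower (4.89 to 5.89). With TMM totals, which shift this pair by -0.09, Hpgds was under 2-fold. At resolution against baseline Alox5 alone was called, 2.74-fold higher (2.53 to 2.98), where 11.8% of 12658 genes were higher and 5.61% lower. TMM totals, with a shift of -0.15, also put Ptges past 2-fold lower in this pair. Consecutive comparisons share a library, so they are not independent of each other.

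The markers of resident macrophages moved with Alox5, Ltc4s and Hpgds. All 10 markers were detected in every library and their summed level was 3282, 589, 1341 and 5458 CPM from baseline to resolution. Barcodes of the resident macrophage-like cluster, which was built without the 10 enzymes, made up 16.9%, 1.35%, 4.10% and 33.2% of the libraries. Within that cluster, Alox5 was at 262, 177, 187 and 315 CPM, a 1.78-fold span against the 25.4-fold span of the whole libraries. Ltc4s in the cluster was at 869, 690, 499 and 432 CPM, highest at baseline and lowest at resolution, an order unlike that of the whole libraries. Equal weight was also given to each cluster with at least 20 barcodes in both libraries of a pair. For peak against baseline this left 6 of 19 clusters. The neutrophil-like, classical monocyte-like and osteoclast-like clusters and those led by Cxcl3 and by Spp1 were left out. Over these 6, 0 of the 10 enzymes were past 2-fold lower, and the ratio of Hpgds was turned to 0.44 on the log2 scale. With that weighting Ltc4s was at -0.09 at plateau against peak, over 12 clusters, and at -0.22 at resolution against plateau, over 9. The summed neutrophil markers, like Lta4h and Ptgs1, were highest at baseline, and their part in those 2 genes was not tested. Without the clusters named as neutrophil, basophil, mast cell or fibroblast, Ptgs1 was lower at plateau than at peak, with a log2 ratio of -0.18.

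The cell clusters that held each enzyme were next described. Clustering left out the 10 enzymes and a wider list of eicosanoid genes, and a cluster was called "-like" only from its markers. No test of a cluster against the rest was made. Intervals are exact 95% Poisson intervals over all libraries.

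Ptgs2 was concentrated in a cluster led by Cxcl3, Cxcl2 and Il1rn, with 541 CPM (526 to 557) in 966 barcodes, which held 35.7% of all Ptgs2 UMIs. This cluster came almost wholly from the peak and plateau libraries, with 631 and 334 barcodes, and Ptgs2 in it was at 569 CPM at peak and 486 CPM at plateau. Higher levels occurred in small clusters, at 1080 CPM in 61 basophil-like barcodes, all from peak, and at 903 CPM in 24 neutrophil-like barcodes. Fibroblast-like barcodes led by Myoc and Apod held 246 CPM. In these Ptgs2 was at 39.4, 386, 184 and 147 CPM from baseline to resolution, highest at peak as in the whole libraries but lowest at baseline, where the whole libraries were lowest at resolution. The gate was for CD45, and 185 of these 414 barcodes lay between CD45.1 and CD45.2. How they passed the gate was not tested. Large clusters also held Ptgs2 at lower levels. Classical monocyte-like barcodes had 18.2% of its UMIs at 119 CPM. The cluster led by H2-Aa had 13.7% at 99.2 CPM and the one led by Spp1 8.95% at 147 CPM. In the resident macrophage-like cluster Ptgs2 was at 3.2 CPM.

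Alox5 and Ltc4s lay mainly in other clusters, whereas Alox5ap and Lta4h were also present in the Cxcl3 cluster, at 1736 and 41.0 CPM. The resident macrophage-like cluster (1909 barcodes, all 10 markers) held 61.2% of all Alox5 UMIs at 292 CPM (282 to 302) and 72.6% of all Ltc4s UMIs at 510 CPM (497 to 523). A cluster led by Ccl17, Mgl2 and Mmp12, with 1120 of its 1187 barcodes from resolution, held a further 24.6% of Alox5 at 147 CPM but had 33.6 CPM of Ltc4s. A cluster led by Spp1 and Arg1, from peak and plateau, held Ltc4s at 114 CPM with Alox5 at 33.7 CPM, beside Ptgs2 at 147 CPM. Each gene was thus highest in the resident macrophage-like cluster, and both were present at lower levels in the clusters led by Ccl17 and by Spp1. Alox5ap was broad, at 1291 CPM in nonclassical monocyte-like, 2112 CPM in classical monocyte-like and 2261 CPM in basophil-like barcodes, but at 53.3 CPM in the larger osteoclast-like cluster and at 180 and 25.9 CPM in the 2 fibroblast-like clusters. Lta4h was at 363 CPM (337 to 391) in 71 neutrophil-like barcodes, 56 of them from baseline, and at 64.1 CPM or less in every other cluster.

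The downstream prostanoid synthases were split as well. Ptges was at 43.8 CPM (38.0 to 50.2) in the fibroblast-like cluster led by Myoc, which held 45.4% of its UMIs, and at 11.5 CPM in the second fibroblast-like cluster and at 4.13 CPM or less in each of the other clusters. Hpgds was at 235 CPM (125 to 402) in 24 mast cell-like barcodes, and 57.8% of its UMIs were in resident macrophage-like barcodes at 49.5 CPM. Tbxas1 was at 52.0 CPM in the Ccl17 cluster, 46.6 CPM in the resident macrophage-like one and 44.8 CPM in the Spp1 cluster. Ptgs1 was at 53.6 CPM in the 71 neutrophil-like barcodes and 36.3 CPM in the second fibroblast-like cluster, and at 13.6 CPM in the Ccl17 cluster. Pla2g4a was present throughout, from 10.8 CPM in type 2 dendritic cell-like barcodes to 54.2 CPM in resident macrophage-like ones.

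**Figure D2:**
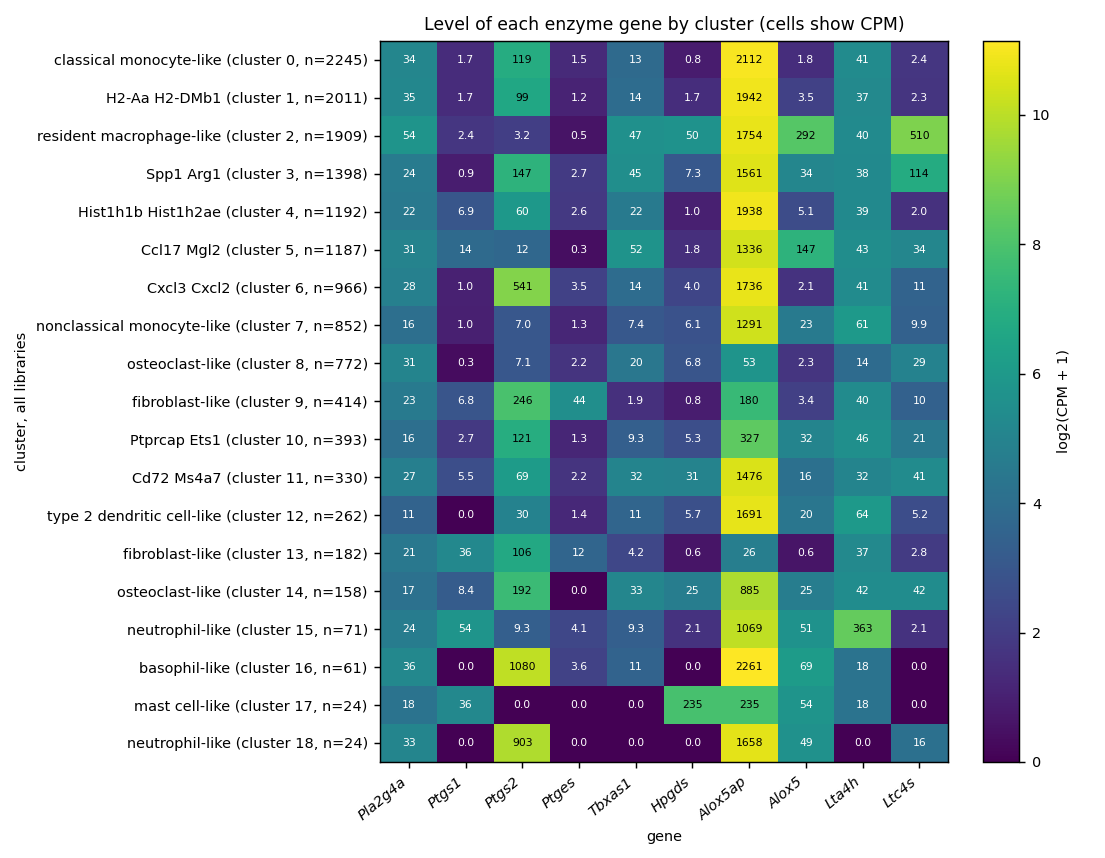
Level of each gene (columns) in each cluster (rows, named by markers or by leading genes, with the number of barcodes), coloured by log2(CPM + 1) with CPM printed in each square. Alox5, Ltc4s and Hpgds are high in the resident macrophage-like row, where Ptgs2 is at 3.2 CPM.

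Over 17 clusters of at least 50 barcodes, the genes with the most similar profiles were found for each enzyme. The points share libraries and differ in depth, so the coefficients are descriptions. Ltc4s was most like Folr2, a folate receptor of resident macrophages (Pearson r = 0.97), and Pf4 (r = 0.91), and Hpgds was also most like Folr2 (r = 0.86). Ptgs2 was most like Nr4a3, an immediate early nuclear receptor (r = 0.86), and Ptges like Ebf2 (r = 0.97). Tbxas1 was most like Trem2 (r = 0.89) and Alox5ap like Tnfaip8l2 (r = 0.92). Alox5 was most like Rell1 (r = 0.80), Lta4h like Mapk13 (r = 0.91), Ptgs1 like Ncam1 (r = 0.89) and Pla2g4a like Camk1 (r = 0.70). Likeness crossed the arms, since Ltc4s and Hpgds shared their closest gene. Among the enzymes themselves, Ltc4s and Hpgds had r = 0.81, whereas Ltc4s and Ptgs2 had r = -0.34.

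In single barcodes Ptgs2 was seldom found with Alox5 or Ltc4s. Each barcode was thinned to 2000 UMIs to remove depth differences, which left out 83, 444, 422 and 572 shallower barcodes from baseline to resolution. Ptgs2 without Alox5 or Ltc4s was found in 4.76%, 16.3%, 12.6% and 2.15% of barcodes. Alox5 or Ltc4s without Ptgs2 was found in 17.4%, 2.93%, 11.3% and 31.5%. Ptgs2 together with Alox5 or Ltc4s was found in 0.101%, 0.491%, 0.457% and 0.198%. These barcodes were 0.119, 0.855, 0.299 and 0.265 times as many as the product of the 2 shares gives. The interval at peak, 0.564 to 1.24, included 1, and the other 3 lay below it. The first share was above the second at peak, and the second above the first at baseline and resolution, with intervals that did not overlap.

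Alox5 and Ltc4s met in a barcode 3.98, 12.2, 3.91 and 1.79 times as often as the product of their shares from baseline to resolution. Ptgs2 and Ltc4s met 0.167, 0.448, 0.319 and 0.131 times as often, with every 95% interval below 1. Ptgs2 and Alox5 also met less often than the product at plateau (0.226) and resolution (0.336), while at baseline (0.208) and peak (1.45) the intervals, 0.00526 to 1.16 and 0.873 to 2.27, included 1. Hpgds of the prostanoid arm met Ltc4s 4.43, 7.61, 1.58 and 2.55 times as often as the product, and Alox5 2.41, 5.56, 1.68 and 1.80 times as often. The plateau intervals of both pairs and the baseline interval of Hpgds and Alox5 included 1. Fibroblast-like barcodes, which should lack Ltc4s, had it in 0 of 42, 2.55% of 157, 0 of 140 and 2.54% of 197 barcodes. The 0 values allow shares of up to 7.14% and 2.14%. Without thinning, their median depth was 9875, 18359, 14836 and 5234 UMIs, against 7752, 8250, 6782.5 and 4912 in all barcodes. The Ltc4s share over all barcodes at peak, 2.42%, was at this background level, against 12.4%, 9.02% and 16.1% at baseline, plateau and resolution. Before thinning the Ltc4s shares were 17.0%, 5.87%, 19.6% and 23.94%.

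**Figure D3:**
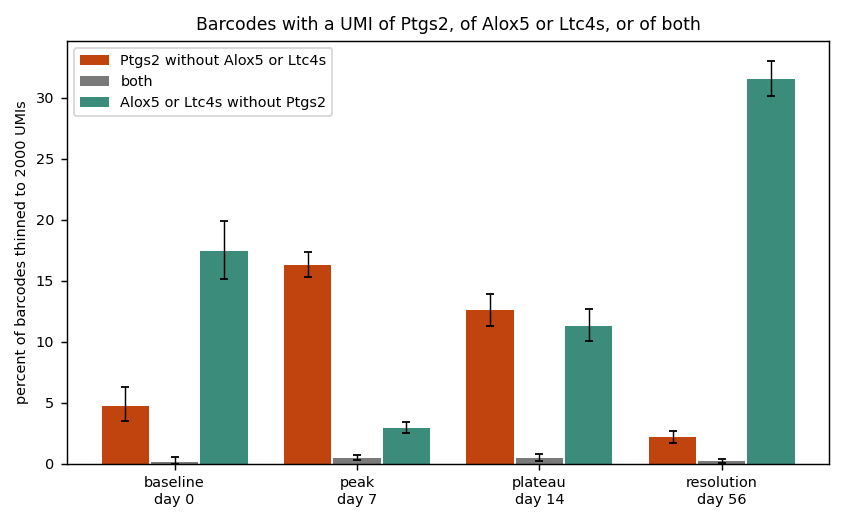
Percent of barcodes (y axis), thinned to 2000 UMIs, that hold a UMI of Ptgs2 alone, of both, or of Alox5 or Ltc4s without Ptgs2, in each library (x axis), with exact 95% binomial intervals. The Ptgs2 bar is the higher one at peak (16.3%), the Alox5 or Ltc4s bar at baseline and resolution (31.5%), and barcodes with both stay under 1%.

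Surface antibodies separated Ptgs2 from Alox5 and Ltc4s as well. In each library, the tertile of barcodes with the highest share of an antibody was set against the lowest, for the 12 antibodies with a median of at least 2 UMIs everywhere, leaving out those to CD45. Alox5 was higher with CD80, by log2 ratios of 3.06, 1.81, 2.90 and 2.74 from baseline to resolution, and with the C5a receptor CD88, by 3.62, 1.69, 3.80 and 2.09. Ltc4s was also higher with CD88, by 7.87, 1.43, 1.78 and 4.58. Both were lower with the integrin subunit CD11a and with CD102 in all 4 libraries, Ltc4s by -6.79, -4.62, -2.59 and -4.75 with CD11a. Ptgs2 had the opposite sign, with log2 ratios of 1.12, 0.15, 3.67 and 1.81 for CD11a. Ptges was lower with CD11b, by -1.58, -2.32, -1.95 and -2.86.

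Donor and recipient barcodes were compared next, to ask which enzymes lay in cells that came from the transferred marrow. Alox5, Ltc4s and Hpgds were lower in CD45.1 than in CD45.2 barcodes in all 4 libraries, and Lta4h was higher in CD45.1. In CD45.1 barcodes Ltc4s was at 6.65, 11.7, 45.0 and 91.9 CPM from baseline to resolution, against 770.0, 123, 122 and 402 CPM in CD45.2 barcodes. The gap was widest at baseline, where Ltc4s was 115-fold lower in CD45.1 (89.7 to 152). Alox5 was at 29.6, 4.50, 11.1 and 145 CPM in CD45.1 barcodes, against 207, 32.9, 34.5 and 223 CPM in CD45.2 barcodes. Its CD45.1 value at resolution exceeded the CD45.2 values at peak and plateau. Hpgds was at 1.72, 2.37, 7.27 and 7.92 CPM in CD45.1 barcodes, against 69.6, 24.2, 14.5 and 48.4 CPM in CD45.2 barcodes.

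With edgeR's quasi-likelihood test on the 8 sums, library as a block and Benjamini-Hochberg adjustment over 11498 genes, 3 of the 10 enzymes were lower and 1 was higher in CD45.1, where 9.85% of all genes were lower and 9.95% higher. The fitted log2 ratio of CD45.1 over CD45.2 was -1.75 for Alox5 (SE 0.37, adjusted p = 0.0206), -2.99 for Ltc4s (SE 0.84, adjusted p = 0.0489) and -2.75 for Hpgds (SE 0.59, adjusted p = 0.0223). Lta4h rose by 0.57 (SE 0.15, adjusted p = 0.0427). Lta4h was at 75.9, 37.7, 27.3 and 46.6 CPM in CD45.1 barcodes, against 57.0, 25.9, 20.9 and 43.1 CPM in CD45.2 barcodes, higher in 4 of 4 libraries. At resolution its fold was 1.08, with a counting interval of 0.925 to 1.27 that includes 1. These log2 ratios, taken without TMM, were 0.41, 0.53, 0.38 and 0.11, each under the fitted 0.57. The fit without TMM gave 0.36. Without the neutrophil-like and other clusters of other cell types, Lta4h at baseline was at 37.5 CPM in CD45.1 and 38.0 CPM in CD45.2 barcodes. This was a fold of 0.98 (0.745 to 1.33), so the baseline difference was not seen there. The folds at peak, plateau and resolution in that setting were 1.44 (1.15 to 1.84), 1.44 (1.10 to 1.95) and 1.16 (0.983 to 1.39). Each library is another stage, so the p-values measure the spread of the ratio between stages and not between mice. Leaving out a library changed the calls. Without peak, edgeR called 0 of the 10 enzymes, and 4 had an unadjusted p under 0.05. Without baseline Alox5 and Lta4h were lost (adjusted p = 0.0651 and 0.107), without plateau Lta4h (0.0958), and without resolution Ltc4s and Hpgds (0.0692 and 0.0505). The Lta4h call was also lost without the clusters of other cell types (0.0525), with a CD45 log2 ratio of 2 (0.0519) and without TMM (0.102). Leaving out barcodes where both CD45 antibodies reached 10 UMIs lost it too (0.0529). In edgeR without resident macrophage-like barcodes its log2 ratio was 0.18 (adjusted p = 0.649). Without the replicate block, 1 enzyme was called, Hpgds (adjusted p = 0.0414).

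Alox5ap and Ptgs2 did not pass this test. Alox5ap was at 1546, 1645, 1088 and 1469 CPM in CD45.1 barcodes, against 1380.5, 483, 425 and 1665 CPM in CD45.2 barcodes (adjusted p = 0.102). The gap was at peak and plateau, where the larger osteoclast-like cluster, with 53.3 CPM of Alox5ap, made up 28.3% and 26.8% of CD45.2 barcodes. It made up 3.55% and 15.9% of CD45.1 barcodes. CPM weights barcodes by their UMIs, and over all libraries this cluster held 16.6% of UMIs in 5.34% of barcodes. Its weight in the peak and plateau CPM of every gene was thus above these barcode shares. The part of this cluster in the gap was not tested. The fitted log2 ratio of Alox5ap was 0.99, and 0.64 in edgeR without osteoclast-like barcodes (adjusted p = 0.0652). Ptgs2 was at 39.0, 160, 117 and 13.9 CPM in CD45.1 barcodes, against 11.0, 71.8, 36.3 and 31.3 CPM in CD45.2 barcodes (fitted log2 ratio 1.10, adjusted p = 0.176). It was higher in CD45.1 in 3 libraries and lower at resolution. Without the resolution library Ptgs2 and Alox5ap passed the same test, with log2 ratios of 1.80 (adjusted p = 0.0058) and 1.37 (adjusted p = 0.0486). Alox5ap also passed in DESeq2 (adjusted p = 0.0245), with no count minimum (adjusted p = 0.0379) and without resident macrophage-like barcodes (log2 ratio 1.70, adjusted p = 0.0266). Without those barcodes the log2 ratio of Ptgs2 was 0.19 (adjusted p = 0.871). Ptges, Tbxas1, Pla2g4a and Ptgs1 had fitted log2 ratios of -0.71, -0.32, -0.38 and 0.01 and adjusted p of 0.20, 0.353, 0.0849 and 0.993. Pla2g4a was lower in CD45.1 in 4 of 4 libraries and passed without TMM (log2 ratio -0.59, adjusted p = 0.0329). Tbxas1 passed without osteoclast-like barcodes (log2 ratio -0.58, adjusted p = 0.0381).

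**Figure D4:**
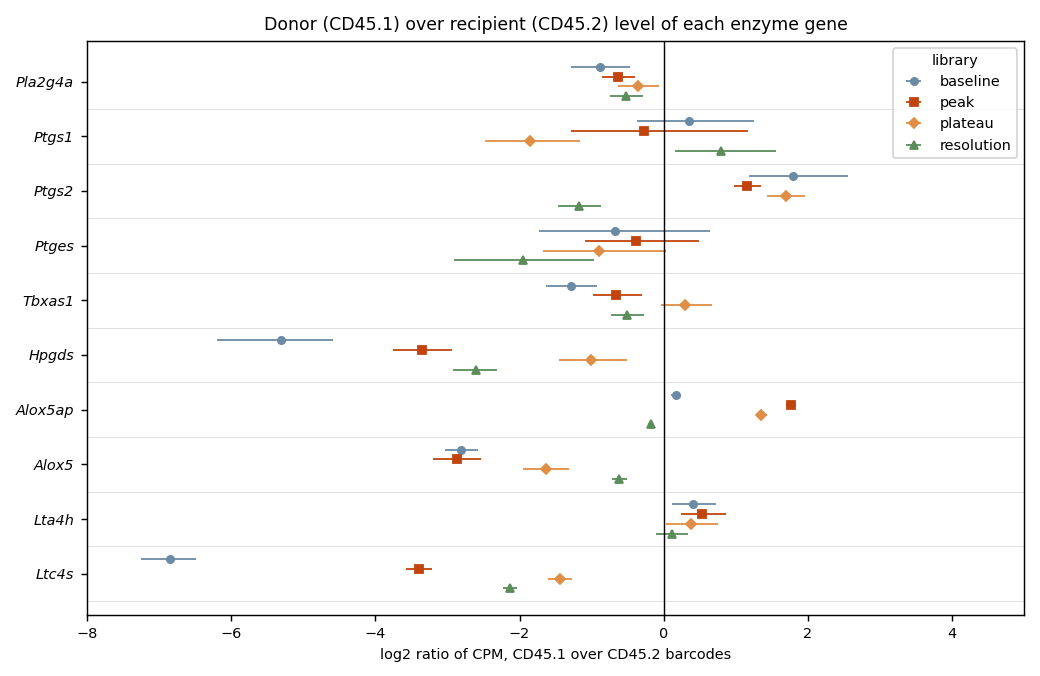
Log2 ratio of CPM in CD45.1 over CD45.2 barcodes (x axis) for each gene (y axis), 1 point per library, with exact 95% intervals that cover counting error alone. All 4 points of Ltc4s, Hpgds and Alox5 lie left of 0, and the Ptgs2 points lie right of 0 except at resolution (-1.17).

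The share of resident macrophage-like barcodes moved with donor and recipient. They made up 3.47%, 0.269%, 1.92% and 25.4% of CD45.1 barcodes from baseline to resolution, against 79.5%, 27.9%, 29.3% and 67.4% of CD45.2 barcodes. In all other barcodes together, a setting added after the data were seen, edgeR called none of these 3 genes: Alox5 had a log2 ratio of -0.41 (adjusted p = 0.297), Ltc4s -0.69 (adjusted p = 0.275) and Hpgds -1.27 (adjusted p = 0.122). Within the resident macrophage-like barcodes alone, also added, Alox5 had a log2 ratio of -0.02 (adjusted p = 0.999). Ltc4s and Hpgds fell by 1.79 (SE 0.27, adjusted p = 0.00115) and by 1.59 (SE 0.19, adjusted p = 0.000175) in CD45.1, and Tbxas1 by 0.70 (SE 0.18, adjusted p = 0.0448). There 2.97% of 5461 genes were lower and 1.83% higher in CD45.1. Ptgs1, Ptgs2 and Ptges were not tested there, which left 7 of the 10 enzymes. The CD45.1 sums came from 28, 15, 46 and 825 barcodes from baseline to resolution, against 151, 61, 70 and 492 for CD45.2. At baseline, plateau and resolution the log2 ratio of Ltc4s was -2.98, -2.61 and -0.82, so it was smallest where barcodes were most. That of Hpgds was -2.64, -1.37 and -1.51.

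That cluster was itself made of 2 parts. At a finer clustering resolution of 1.2, added after the data were seen, it was held by a cluster of 1207 barcodes led by Fxyd2 and Aqp1, 91.7% of them from it, and one of 788 barcodes led by Vsig4 and Lyve1, 99.9% of them from it. Ltc4s was at 172 CPM in the Fxyd2 part and 930.0 CPM in the Lyve1 part, and Alox5 at 309 and 264 CPM. CD45.1 barcodes numbered 792 in the Fxyd2 part and 177 in the Lyve1 part, against 267 and 532 CD45.2 barcodes. Inside a part the donor and recipient values of Ltc4s were closer than in the whole cluster, at 169 CPM in CD45.1 against 144 CPM in CD45.2 in the Fxyd2 part, and at 777 against 963 CPM in the Lyve1 part. In the resolution library alone they were 171 against 152 CPM and 907 against 859 CPM. Hpgds kept a gap in both parts, at 17.4 CPM in CD45.1 against 40.6 CPM in CD45.2 in the Fxyd2 part and at 44.0 against 89.4 CPM in the Lyve1 part. It was 2.33-fold lower in CD45.1 (1.69 to 3.21) in the Fxyd2 part and 2.01-fold lower (1.49 to 2.82) in the Lyve1 part, with counting intervals. Within the Lyve1 part the marker Timd4 was at 0.936 CPM in CD45.1, from 1 UMI, and at 99.3 CPM in CD45.2, so donor and recipient barcodes of a part still differed, and the part of this in the Hpgds values was not tested.

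**Figure D5:**
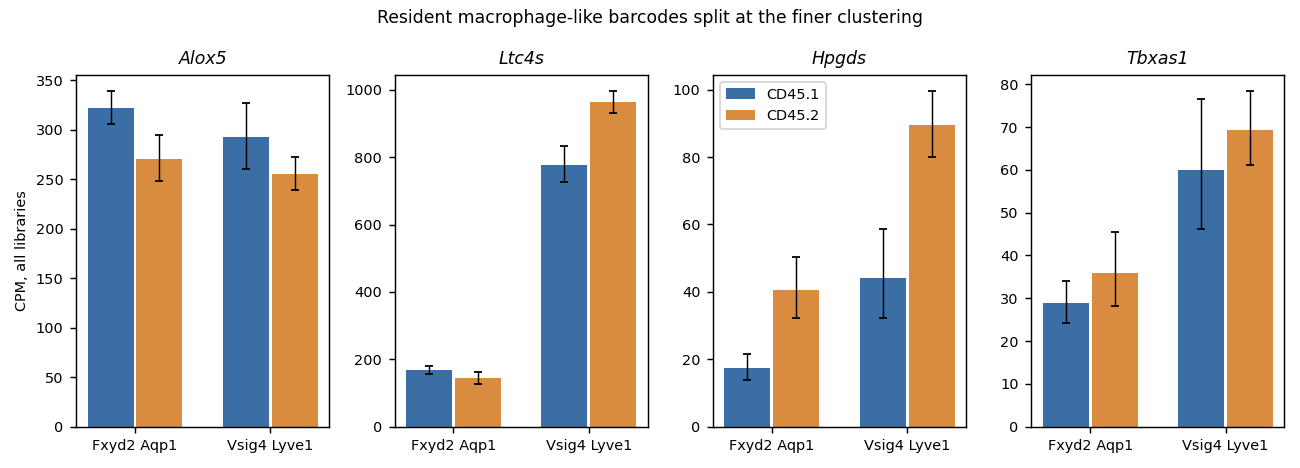
Level of Alox5, Ltc4s, Hpgds and Tbxas1 in CPM (y axis) in the 2 parts of the resident macrophage-like cluster (x axis), CD45.1 left of CD45.2, all libraries together, with exact 95% Poisson intervals for counting error. Ltc4s differs between the parts, and Hpgds is lower in CD45.1 in both.

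The other genes of the pathway were counted from a list of phospholipases, further synthases, inactivating enzymes, transporters and receptors, 62 of which were found by symbol. At peak against baseline 9 were called higher and 5 lower of 41 with enough UMIs, where 8.52% of all genes were higher and 12.6% lower. Pla2g7, which inactivates platelet-activating factor, was higher (329 CPM at peak, 111 CPM at baseline), and so was Dpep2, a dipeptidase that acts on leukotriene D4 (35.6 and 16.4 CPM). Hpgd, the enzyme that inactivates prostaglandins, was lower (24.0 CPM at peak, 166 CPM at baseline), and so was Mgst2, a second leukotriene C4 synthase (1.96 and 21.6 CPM). At plateau against peak 9 were higher and 5 lower of 43, where 15.1% of all genes were higher and 5.07% lower. Ephx2, an epoxide hydrolase, was 4.86-fold higher and Pla2g2e 4.16-fold higher. The medians of the list, 0.10 and 0.25 on the log2 scale, stood beside -0.13 and 0.30 for all genes.

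At resolution against plateau 11 were higher and 7 lower of 42, where 13.4% of all genes were higher and 10.5% lower. Hpgd was higher (121 CPM at resolution, 18.6 CPM at plateau), as were the epoxide hydrolase Ephx1 (68.3 and 5.61 CPM) and Alox15, the 12/15-lipoxygenase (11.5 CPM at resolution and, from 2 UMIs, 0.068 CPM at plateau, a ratio with an interval of 46.6 to 1408). Ephx2 was lower (0.221 CPM at resolution, 15.9 CPM at plateau). At resolution against baseline 8 were higher and 1 lower of 39, where 11.8% of all genes were higher and 5.61% lower. Alox15 was 4.36-fold and Ephx1 4.22-fold higher, and Mgst2 3.89-fold lower. The medians were 0.03 and 0.34, beside 0.06 and 0.18 for all genes.

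Between donor and recipient, edgeR called 10 of the 37 tested list genes higher and 5 lower in CD45.1, with 9.95% and 9.85% of all genes as background. The leukotriene B4 receptor Ltb4r1 rose by 2.92 on the log2 scale (adjusted p = 0.00252) and the leukotriene B4 hydroxylase Cyp4f18 by 2.83 (adjusted p = 0.00271). Ptger2, a prostaglandin E2 receptor, rose by 2.23 (adjusted p = 0.0325) and Pla2g7 by 1.81 (adjusted p = 0.00362). Ephx1 fell by 2.31, Pla2g2e by 2.16 and the prostaglandin F receptor Ptgfr by 2.15 in CD45.1 (adjusted p of 0.0121, 0.0299 and 0.0135), and Cbr1, a carbonyl reductase, by 1.04 (adjusted p = 0.0144). The median of the list was -0.22 and that of all genes -0.02.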

How the data were processed

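Gene and antibody UMIs of sorted synovial cells were counted in 4 CITE-seq libraries. The deposited matrices hold raw counts, made by the authors with Cell Ranger 6.1.2 per the file headers. The submitters' processing notes also name mm10 and Seurat 4.4.0. Replicates were not pooled, and 0 columns of values were left unused. Kept barcodes had 300 genes or more and 10% mitochondrial UMIs or less. Doublets were not called, and results without the 6% of barcodes with most UMIs were computed instead. Counts were summed per library, cluster or CD45 variant, and levels are UMIs per 1000000 gene UMIs (CPM). Stage ratios had 0.5 counts added and conditional binomial intervals. Intervals and limits for 0 counts (3 counts) cover counting error only.

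Sums of CD45.1 and CD45.2 barcodes were tested with edgeR 4.0.16 (R 4.3.3), library as a block, over all genes, and with DESeq2 1.42.0 as an alternative. The block pairs both sums of a library. Clusters came from scanpy 1.11.5 and leidenalg 0.10.2 (2000 variable genes, 30 components, 15 neighbours, resolution 0.8), with 73 genes left out. Names needed at least 3 markers. All 10 enzymes are named. From the wider list, genes could be named up to 4 per direction, by the largest fold among those called. A stage call also needed a level of 10 CPM in one library. Not every list gene that met this rule is named in the text. The 3 genes most like each enzyme were ranked by Pearson correlation. The members and lists were chosen with earlier results of these data known. Promoters are from RefSeq (GRCm38.p6), with windows for 9 of 10 members. The test was tried on simulated data.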

Additional observations from a re-analysis of the deposited data

Results flagged for a closer look

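Ptgs2 stood apart because its donor to recipient ratio was past 2-fold in both directions between stages, with counting intervals that left out 1. Its log2 ratio of CD45.1 over CD45.2 was 1.80 at baseline, 1.16 at peak and 1.69 at plateau, but -1.17 at resolution. A turn of sign alone was not particular to Ptgs2. Ptgs1 was at -1.85 at plateau and 0.79 at resolution. Alox5ap was at 1.77 at peak and -0.18 at resolution. The difference between the stages was not tested, since each stage had 1 library. At resolution Ptgs2 was lower in CD45.1 than in CD45.2 in 3 of the 4 clusters compared, at 42.9 against 131 CPM in the cluster led by Hist1h1b, at 9.34 against 39.2 CPM in the Ccl17 cluster and at 103 against 241 CPM in the fibroblast-like cluster led by Myoc. In the resident macrophage-like cluster it was the other way, at 2.55 against 0.636 CPM from 12 and 2 UMIs, with a fold interval of 0.892 to 36.9 that includes 1. Without the clusters named as other cell types the ratios were 2.00, 3.35, 1.56 and -0.41 from baseline to resolution. As a fold, the value at resolution had a counting interval of 0.573 to 1.01, which includes 1.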

How the results depend on the processing

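Counts of enzymes past 2-fold moved with the weighting of clusters, the scaling and the threshold. Equal weight could be given only to clusters of at least 20 barcodes in both libraries, 6 to 12 of 19 by pair. With it, 0 were lower at peak against baseline, 1 was higher at plateau against peak, 1 at resolution against plateau and 0 at resolution against baseline. TMM totals and DESeq2 size factors each left 1 higher at plateau against peak and 1 lower at resolution against baseline. Both also put Hpgds under 2-fold at resolution against plateau. At 1.5-fold, 1 was lower at plateau against peak, 6 were higher and 2 lower at resolution against plateau, and 2 were higher and 3 lower at resolution against baseline. At 3-fold, 0 were higher at plateau against peak, 1 at resolution against plateau and 0 at resolution against baseline. Without the clusters of other cell types, 2 were lower at resolution against plateau and 2 against baseline, and without barcodes where both CD45 antibodies reached 10 UMIs 1 was lower at resolution against baseline.

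With library as the replicate block 1 enzyme was higher and 3 were lower in CD45.1, and with no replicate block 0 were higher and 1 was lower. DESeq2 and the fit with no count minimum each gave 2 higher. The number higher was 0 with plain totals, without barcodes of both CD45 antibodies, without other cell types, at a CD45 log2 ratio of 2 and in resident macrophage-like barcodes only. Leaving out a library gave 0 to 3 higher and 0 to 3 lower. Without resident macrophage-like barcodes 0 were lower. With plain totals and without osteoclast-like barcodes 4 were lower, through Pla2g4a and Tbxas1.

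Some signs turned, and the cause was not tested. With equal cluster weight Hpgds was at 0.44 at peak against baseline, and Ltc4s at -0.090 at plateau against peak and -0.22 at resolution against plateau. For CD45.1 over CD45.2, clusters needed at least 20 barcodes of each variant. At plateau 4 clusters were left, without those led by Cxcl3 and by Spp1, and Ptgs2 was at -0.24. They included the smaller osteoclast-like cluster, with 188 against 435 CPM from 7 and 8 Ptgs2 UMIs. At baseline the resident macrophage-like cluster alone was left, so the 0.23 of Alox5 there comes from 1 cluster and weights none. Ptgs1, near 0 in the CD45.1 test, was at -0.20 with plain totals, -0.066 at 5% mitochondrial UMIs, -0.17 without the 6% of barcodes with most UMIs, -0.87 without resident macrophage-like barcodes, -0.29 without osteoclast-like barcodes and between -0.33 and 0.68 when a library was left out, with -0.23 without baseline and -0.33 without resolution. It was at -0.18 at plateau against peak without other cell types. Resident macrophage-like barcodes alone gave -0.12 for Alox5ap and 0.16 for Pla2g4a, and leaving them out gave 0.36 for Tbxas1. Of the single values under all alternatives, 387 kept their direction and call or moved within error, 178 moved further, 22 lost and 8 gained a call and 16 turned. The settings on resident macrophage-like and osteoclast-like barcodes were chosen after seeing the data.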
